A study of Mus musculus with 48 samples.

Results

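Eya3 encodes a member of the eyes absent family, a transcriptional co-activator that also carries phosphatase activity. It does not bind DNA by itself and acts on its targets together with homeobox proteins and other transcription factors. In the pars tuberalis, the thin layer of pituitary tissue around the stalk, long nights mean a long melatonin signal through the melatonin receptor, and shorter nights release the making of thyrotropin. Thyrotropin from this tissue reaches the hypothalamus, where it raises the deiodinase Dio2 and with it local active thyroid hormone. EYA3 is known as a co-activator of the thyrotropin beta subunit gene Tshb in this tissue, acting with the clock output factor TEF.

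Eya3 was 1 of 18194 genes measured on 48 Affymetrix expression arrays, and it was read by all 4 probe sets that carry Eya3 as their only symbol. The probe set with the highest mean over the 48 arrays, 1435443_at, stands for the gene unless another is named. Values are log2 levels, so a difference of 1 is a doubling. Each array measured a pool of pars tuberalis from 25 mice, punched with a needle of 0.5 mm from brain slices of 0.5 mm.

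All groups were male CBA/N mice, bought 3 weeks after birth and kept for 3 weeks on short days of 8 h light and 16 h dark. Some then stayed on short days and others moved to long days of 16 h light and 8 h dark for 2 weeks, and both are labelled as 8 weeks old. The first-day groups, labelled as 6 weeks old, were sampled on their first day of 16 h light, reached either by turning the light on 8 h earlier (advance) or by turning it off 8 h later (delay). Tissue was collected every 4 h over a day, which gave 6 ZT per condition, 24 groups and 2 arrays in each group. ZT counts hours from lights-on, and for both first-day conditions it keeps the count of the earlier short-day cycle, so that light began at ZT16 and ended at ZT8 in advance and began at ZT0 and ended at ZT16 in delay. The procedure was repeated to give the 2 replicates, each a pool of mice, and p-values measure the spread between such pools. Because these are bulk samples, more cells that make a transcript and more transcript per cell cannot be told apart.

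The tissue carried its defining hormone transcripts. Cga, the alpha subunit shared by the glycoprotein hormones, lay between 13.21 and 14.43 on all arrays, and Tshb between 9.72 and 14.43. Growth hormone transcript (Gh), a marker of the neighbouring pars distalis, had a median of 6.73 and passed 10 on 3 arrays. Prolactin (Prl) had a median of 6.83 and passed 10 on 6. Markers of other tissue were also high. Under short days the median summed log2 level was 14.26 for hypothalamic neuron markers and 14.11 for pars tuberalis and thyrotroph markers. It was 13.53 for oligodendrocyte, 13.52 for meninges and fibroblast and 13.42 for tanycyte markers. Such sums do not give shares of tissue, and which cells gave the Eya3 signal was not tested. The clock genes of 44 arrays were most like their own labelled ZT. The other 4, the long-day arrays of ZT16 and ZT20, were most like a ZT 4 h away. The reference for an array's own ZT was only the other array of its group, so an odd array can also set its partner off. The first array of ZT16 was most like ZT12 (r = 0.835) and the second most like ZT20 (0.595). The first array of ZT20 was most like ZT0 (0.555) and the second most like ZT16 (0.827). For the clock gene Arntl the first and second arrays were at 8.38 and 9.06 at ZT16 and at 8.93 and 8.26 at ZT20. For the melatonin receptor gene Mtnr1a they were at 8.17 and 10.41, and at 9.85 and 8.30. In both genes each second array lay nearer the first array of the other point, which did not hold for Hlf. Eya3 values at those points are given array by array.

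The Eya3 gene lies on the forward strand of mouse chromosome 4 in GRCm38.p6, from 132639025 to 132724765, with 3 curated and 3 predicted RefSeq transcripts. The stretch used here, chr4:132638796-132639024, is the part of the RefSeq promoter window that lies ahead of the gene start. It holds 229 bases, with a GC content of 58.1%. It is shown because several transcripts discussed with Eya3 encode factors with known DNA motifs: CREM binds cAMP response elements and TEF and HLF bind D-boxes. Capitals mark the GC boxes (GGGCGG or its complement CCGCCC) and the only E-box core (CANNTG).

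Eya3 promoter: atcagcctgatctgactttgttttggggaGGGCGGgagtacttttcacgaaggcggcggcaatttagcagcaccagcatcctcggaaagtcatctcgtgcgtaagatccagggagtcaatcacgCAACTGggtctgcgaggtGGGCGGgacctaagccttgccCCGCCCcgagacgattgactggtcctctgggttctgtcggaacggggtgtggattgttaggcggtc

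Both strands were searched in this stretch and in the first 229 bases of each of the 32851 mouse promoter windows available. Shares of promoters refer to those first 229 bases, which need not end at a gene start. Bases past the Eya3 gene start were not searched. The stretch held 3 GC boxes, a motif present in 29.7% of the promoters. It held 1 E-box core, 105 bases ahead of the gene start on the forward strand, and 63.4% of the promoters hold such a core, of which the full E-box CACGTG is a special case. No match was found for CACGTG (5.29% of promoters), the cAMP response element TGACGTCA (1.26%) or its core TGACG (15.8%), the D-boxes TTATGTAA (0.77%), TTATGCAA (0.661%) and TTACGTAA (0.103%), CCAAT (32.0%) or AGGTCA (13.0%). The absence of a match says only that these letters are not in this stretch.

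The levels of Eya3 separated into a high and a low part of the series. Under chronic short days its 12 arrays ran from 8.95 to 9.43 with a median of 9.17, and in delay from 8.95 to 9.40 with a median of 9.17. Under chronic long days the 12 arrays ran from 9.46 to 10.88 with a median of 9.98; the lowest of them was just above the highest short-day array. In advance the range was 9.01 to 11.06 around a median of 9.24, because 4 of the arrays, those of ZT20 and ZT12, lay at 10.08 or above and the other 8 at 9.26 or below. The group means spanned 1.25-fold over the short day, 1.30-fold over the delay day, 2.33-fold over the long day and 3.37-fold over the advance day.

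Ranked by mean, the 8 highest of the 24 groups were the 6 long-day groups and the advance groups of ZT20 and ZT12. Advance ZT20 stood first at 10.82 ± 0.33 (SD, n = 2) and long-day ZT4 next at 10.79 ± 0.12, and their ranges overlapped. Of the 23 pairs of neighbours in this order, 19 had overlapping ranges. In the other 4 the gap was larger than the larger SD of the pair: below long-day ZT4, where the mean dropped by 0.45, below long-day ZT12, by 0.29, below long-day ZT0, by 0.23, and below advance ZT8, by 0.09. All groups of the short and delay days and the remaining 4 advance groups lay between 8.97 and 9.35.

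**Figure D1:**
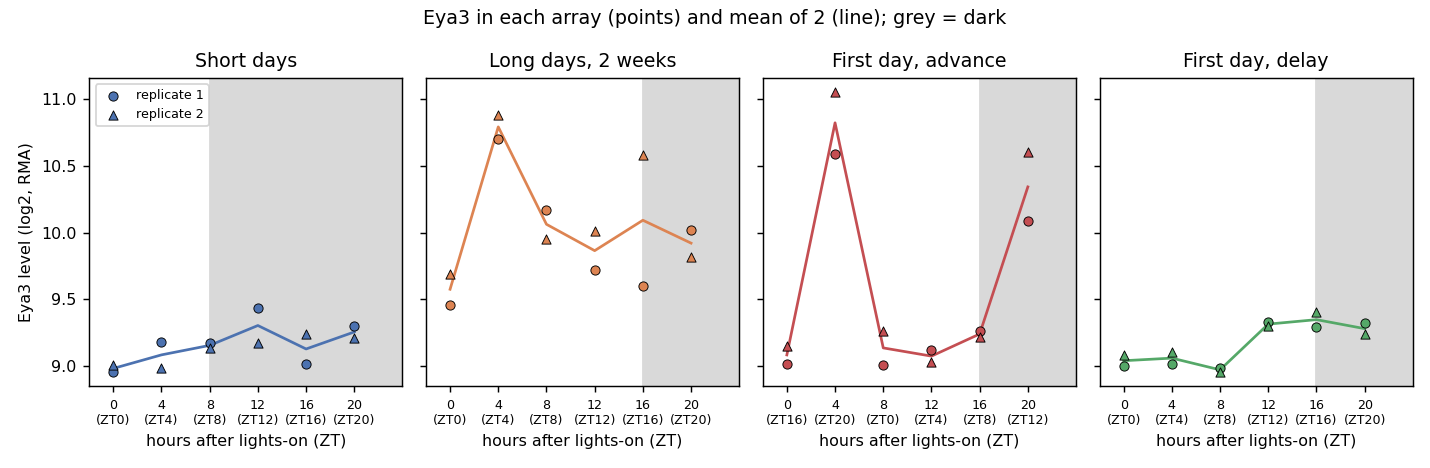
Log2 level of Eya3 (vertical axis) in each array against hours after lights-on, with ZT in brackets, for the 4 conditions. Circles and triangles are the arrays of the 2 replicates, lines join the means, and grey marks darkness; the long-day arrays all lie above the short-day arrays, and advance is high at ZT20 and ZT12 only among its time points.

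Chronic long days raised Eya3. Averaged over the 6 time points the long-day level was 10.05 and the short-day level 9.15, a difference of 0.90 ± 0.07 (SE; n = 12 and 12 arrays) or 1.87-fold (limma, adjusted p = 9.06e-12). A difference of this kind was common, since 46.7% of all genes passed the same test, 17.6% higher and 29.1% lower; by p-value Eya3 ranked 206 of 18194. The whole-day mean held when any one array was left out, with differences from 0.82 to 0.98.

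The size of that difference depended on the time of day. At ZT4 the short-day arrays were at 9.18 and 8.98 and the long-day arrays at 10.71 and 10.88, which gave 1.71 ± 0.18 or 3.28-fold (limma, adjusted p = 5.51e-08, where 22.2% of all genes passed). At ZT8 the short-day arrays were at 9.17 and 9.13 and the long-day arrays at 10.17 and 9.95, a difference of 0.91 ± 0.18 (adjusted p = 0.000831, 16.2% of genes). Both pairs of arrays were far apart at these hours.

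The other hours gave smaller or less certain differences. At ZT0 the arrays were at 8.95 and 9.0045 under short days and at 9.46 and 9.69 under long days, a difference of 0.59 ± 0.18 (limma, adjusted p = 0.0190, 20% of genes). That call was lost without either short-day array (adjusted p = 0.0789 and 0.0991), without the second long-day array (0.48, adjusted p = 0.191), and with the 3 prime minus 5 prime signal of the actin control as a covariate (0.61, adjusted p = 0.109). At ZT12 the short-day arrays were at 9.43 and 9.17 and the long-day arrays at 9.72 and 10.01; they did not overlap, but 0.56 ± 0.18 missed the threshold (adjusted p = 0.0644, 5.45% of genes).

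At ZT16 the long-day arrays disagreed, at 9.60 and 10.58, against 9.01 and 9.24 under short days. The difference of 0.97 ± 0.18 passed (limma, adjusted p = 0.000521, 16% of genes), but without the second long-day array it was 0.47 (adjusted p = 0.0911) and without the first 1.46. The long-day arrays of ZT20 were at 10.02 and 9.82 and the short-day arrays at 9.30 and 9.21, and the difference was 0.67 ± 0.18 (adjusted p = 0.00889, 19.6% of genes). There the call was lost without the first long-day array (0.57, adjusted p = 0.0925) or the second short-day array (0.62, adjusted p = 0.0746). With both second long-day arrays of ZT16 and ZT20 left out, the differences were 0.47 (adjusted p = 0.0873) and 0.77 (adjusted p = 0.00255). The labels of these arrays were kept, and whether any were exchanged was not tested. At all 6 time points both long-day arrays were above both short-day arrays.

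The actin control, a measure of RNA integrity on each array, moved with photoperiod: its 3 prime minus 5 prime log2 signal was 1.89 ± 0.12 under short days and 1.65 ± 0.12 under long days (SD, n = 12 each), where a higher value goes with shorter RNA. With that signal as a covariate the whole-day difference of Eya3 was 0.91 (limma, adjusted p = 8.60e-08). Of 43 markers of other cell types that a punch could hold, 40 were measured, and 8 were higher and 15 lower under long days, where 17.6% of all genes were higher and 29.1% lower. Their part in the difference was not tested.

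Eya3 had a daily course under long days but none that passed under short days. The F test over the 6 time points gave an adjusted p of 0.00155 under long days (limma), where 1.63% of all genes passed, and 0.730 under short days, where 8.91% passed. The long-day course was a peak at ZT4 with a trough at ZT0, so that from lights-on to 4 h later the level went from 9.57 ± 0.16 to 10.79 ± 0.12, a step of 1.22 ± 0.18 or 2.33-fold (adjusted p = 0.000183, 0.214% of genes). From ZT4 to ZT8 it came down by 0.73 ± 0.18, which missed the threshold (adjusted p = 0.101, 0.0989% of genes). Without the second array of long-day ZT4 the course no longer passed (adjusted p = 0.0701), and with only the short and long days in the fit neither the course (0.169) nor the step (0.0513) did. Without any one of the 4 arrays of ZT0 and ZT4 the step still passed (adjusted p at most 0.0240).

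The daily courses under long and short days differed when matched by ZT (limma F test, adjusted p = 0.0270, 4.3% of genes). Matched by the clock times in the sample titles, on which the long-day cycle began 4 h earlier, they differed as well (adjusted p = 0.0277, 0.467% of genes). Matched by hours from lights-off, the difference did not pass (adjusted p = 0.263, 0.275% of genes). The call by ZT was lost without any one of 5 arrays: both of short-day ZT4 (adjusted p = 0.0527 and 0.116), both of long-day ZT4 (0.0620 and 0.159) and the first of long-day ZT12 (0.0567). It was also lost with array weights (0.0823) and with only these conditions in the fit (0.149).

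**Figure D2:**
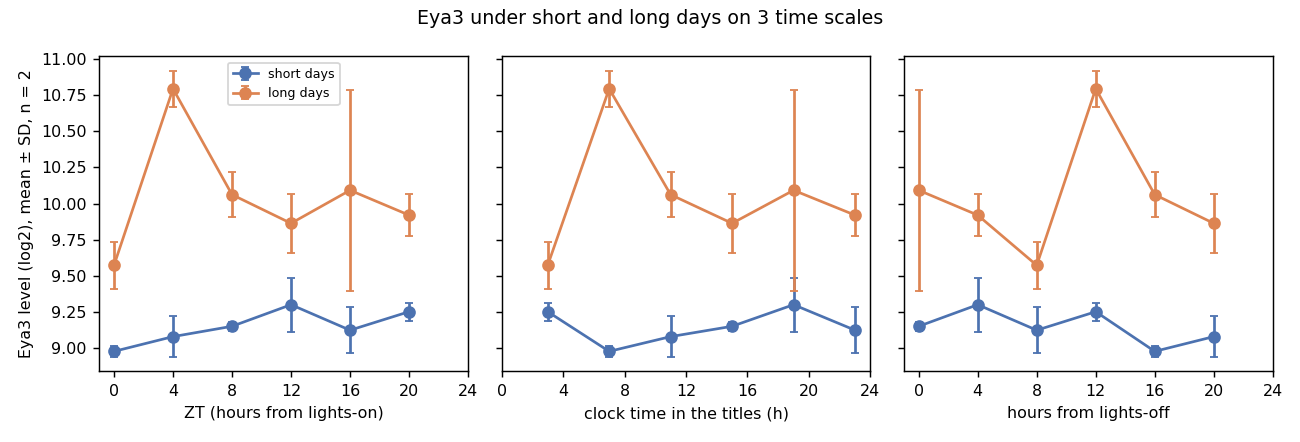
Mean log2 level of Eya3 with SD (n = 2 arrays) under short and long days, plotted against ZT, against clock time in the sample titles and against hours from lights-off. On each scale the long-day curve lies above the short-day curve, and its peak of 10.79 falls 4 h after lights-on, which is 12 h after lights-off.

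Early light on the first long day raised Eya3 within 4 h. In advance the arrays taken at lights-on, ZT16, were at 9.01 and 9.15, and those taken 4 h later, at ZT20, were at 10.59 and 11.06. Over the same hours, in darkness, the short-day arrays went from 9.01 and 9.24 to 9.30 and 9.21. The arrays of these other 3 groups all lay between 9.01 and 9.30, and both arrays with 4 h of light were more than 1 log2 unit above them.

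The change in advance less the change under short days was 1.62 ± 0.26, or 3.06-fold (limma, adjusted p = 0.000685). Of all genes 0.22% passed that test, 0.181% with a higher and 0.0385% with a lower response, and Eya3 ranked 12 of 18194 by p-value. Leaving out each of the 8 arrays in turn gave 1.38 to 1.85 with an adjusted p of at most 0.0297; the lowest value came without the second array of advance ZT20. Of the 40 measured markers of other cell types, 1 rose (Dio2, which was on the tanycyte list) and none fell, and the actin control signal was 1.75 at ZT16 and 1.70 at ZT20 in advance.

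The high level did not last. By ZT0, 8 h after lights-on, the advance arrays were back at 9.01 and 9.26, a fall of 1.69 ± 0.18 from ZT20 (limma, adjusted p = 2.01e-07, 0.489% of genes). They stayed at 9.12 and 9.02 at ZT4 and at 9.26 and 9.22 at ZT8, when the light went off. All 6 of these arrays were within the range of the short-day arrays.

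Relative to ZT16 and to the short-day change, the differences at these times were 0.20 ± 0.26 at ZT0 (adjusted p = 0.827, 0% of genes), 0.04 ± 0.26 at ZT4 (0.969, 0.0055%) and 0.13 ± 0.26 at ZT8 (1.00, 0.011%). None of the 3 passed by limma, and at ZT0 no gene did, with 1695 at an unadjusted p under 0.05. For Eya3 the 95% intervals reached up to 0.72, 0.56 and 0.66.

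Another high value came at ZT12, 4 h into the dark and 20 h after lights-on, with arrays at 10.08 and 10.60. Within the advance day this was 1.10 ± 0.18 above ZT8 (limma, adjusted p = 0.00750, rank 2 of 18194, 0.044% of genes) and 1.26 ± 0.18 above ZT16 (adjusted p = 7.16e-05, 0.445% of genes). The rise from ZT8 was lost without the second array of ZT12 (0.85, adjusted p = 0.562) or either array of ZT8 (adjusted p = 0.210 and 0.356), while the rise from ZT16 passed without any one of its 4 arrays. These within-day contrasts were added after the values had been seen.

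Against the short-day change over the same hours the ZT12 value was 1.09 ± 0.26 higher, or 2.12-fold, which did not pass (adjusted p = 0.391). No gene passed in that contrast (0% of 18194 by limma, with 1218 at an unadjusted p under 0.05), and Eya3 had the eighth smallest p. Leaving out each of the 8 arrays in turn gave 0.83 to 1.34 for Eya3, and in 7 of these fits the contrast did not pass. The exception was the fit without the first array of short-day ZT16 (1.20). Under all 10 other settings for this probe set the contrast did not pass either.

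The 2 arrays of advance ZT12 also differed in other tissue. The summed level of 6 measured pars distalis markers was 12.23 on the first and 14.09 on the second, on the log2 scale, and the second had the higher Eya3. By the same sum the arrays of advance ZT16 were at 12.40 and 13.42, and those of advance ZT20 were at 12.51 and 12.40, just below the short-day arrays of ZT16 and ZT20, which lay between 12.64 and 12.87. The second array of ZT16 thus lay above those short-day arrays while its Eya3 was low. The part of pars distalis tissue in the ZT12 value and in the early light response was not tested.

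Over the whole advance day the course of Eya3 passed (limma F test, adjusted p = 2.30e-09, rank 18 of 18194, 2.58% of genes). That result held without any one of the 12 arrays, with an adjusted p of at most 4.27e-07.

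Evening light gave no change that passed. In delay the arrays at ZT8, when the short day would have ended, were at 8.98 and 8.95, and after 4 h of extra light, at ZT12, at 9.33 and 9.30. Under short days the arrays went from 9.17 and 9.13 at ZT8 to 9.43 and 9.17 at ZT12 in darkness. Both conditions were thus a little higher at ZT12 than at ZT8, and the delay arrays of ZT12 lay inside the span of the short-day arrays of ZT12.

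The evening light response was 0.19 ± 0.26 with a 95% interval of -0.33 to 0.72 (limma, adjusted p = 0.869, 0.0385% of genes). By ZT16, after 8 h of extra light, the delay arrays were at 9.29 and 9.40 and the response was 0.40 ± 0.26 (adjusted p = 0.487, 1.1% of genes). At ZT20, in darkness again, they were at 9.32 and 9.23 and it was 0.21 ± 0.26 (adjusted p = 0.982, 0.148% of genes). The F test over the delay day gave an adjusted p of 0.688, where 1.52% of genes passed.

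The early response was larger than the evening response by 1.42 ± 0.37, with a 95% interval of 0.68 to 2.16 and an unadjusted p of 0.000460. After adjustment over all genes that difference did not pass (limma, adjusted p = 0.147, 0.159% of genes). It passed with only the 3 conditions concerned in the fit (adjusted p = 0.0190). The responses use different short-day arrays, those of ZT16 and ZT20 and those of ZT8 and ZT12.

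Advance and delay mice shared their labelled age and their earlier housing, and Eya3 differed between them at 2 of the 6 time points. At ZT20 the advance arrays were 1.55 ± 0.18 above the delay arrays (limma, adjusted p = 8.15e-07, 2.98% of genes), and at ZT12 1.03 ± 0.18 above them (adjusted p = 0.00185, 1.81% of genes). Without the second advance array the ZT12 difference was 0.77 (adjusted p = 0.107). At ZT0, ZT4, ZT8 and ZT16 the differences were 0.10, 0.01, 0.27 and -0.26, each ± 0.18, and none passed (0.159%, 0.357%, 2.08% and 0.879% of genes did). The actin control signal differed between the conditions, at 1.69 ± 0.09 in advance and 1.85 ± 0.13 in delay (SD, n = 12 each). With that signal as a covariate the differences were 1.56 at ZT20 (limma, adjusted p = 3.16e-06) and 1.04 at ZT12 (adjusted p = 0.00283).

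The step over the 4 h after lights-on differed between some of the lighting histories. Eya3 changed by 0.10 ± 0.18 under short days (adjusted p = 0.925, 0.17% of genes), by 0.02 ± 0.18 in delay (1.00; no gene passed by limma, and 790 had an unadjusted p under 0.05), by 1.22 ± 0.18 under long days and by 1.74 ± 0.18 in advance (adjusted p = 6.82e-08, 0.72% of genes). The step thus passed the test in the conditions where lights-on ended 8 h of darkness, and not in those where it ended 16 h of darkness. In the conditions where it passed, lights-on also came earlier by clock time, by 4 h under long days and 8 h in advance. The part of night length and that of clock time were not tested. The long-day step did not pass with only the short and long days in the fit (adjusted p = 0.0513). By probe set 1420933_a_at it was 0.59 ± 0.18 and did not pass either (adjusted p = 0.566).

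The step in advance was larger than that under short days by 1.64 ± 0.26 (limma, adjusted p = 0.000212, 0.555% of genes) and larger than that in delay by 1.72 ± 0.26 (adjusted p = 0.000220, 0.275% of genes). These comparisons share the advance arrays. Against the long-day step the difference was 0.52 ± 0.26, with a 95% interval of -0.002 to 1.05 (adjusted p = 0.998, 0.319% of genes). The long-day step exceeded the short-day step by 1.12 ± 0.26, which just missed the threshold (adjusted p = 0.0578, 0.181% of genes).

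**Figure D3:**
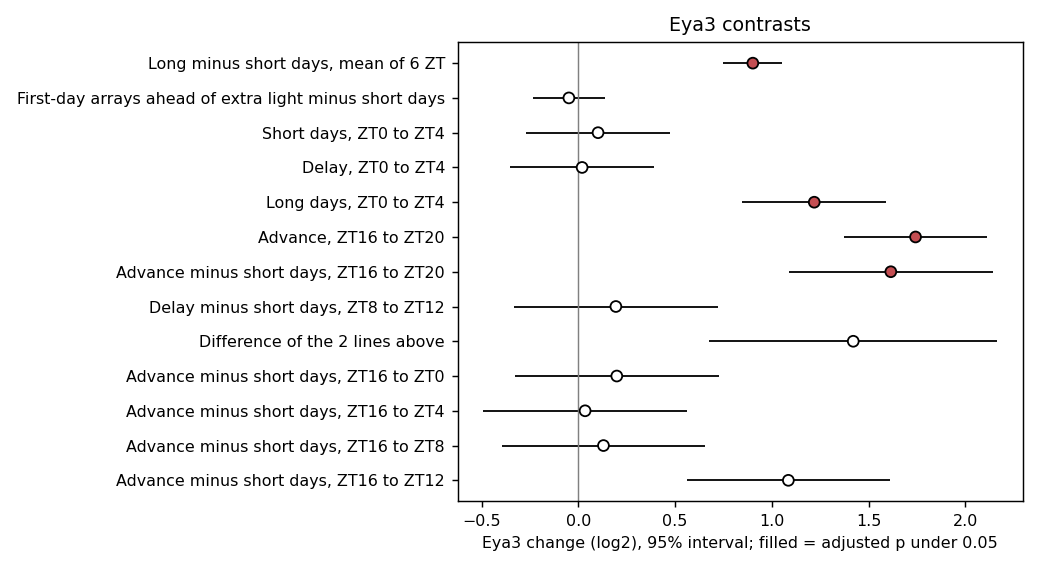
Changes of Eya3 (log2, horizontal axis) with 95% intervals for the whole-day, lights-on and first-day contrasts, filled where the adjusted p over all genes was under 0.05. The early light response of 1.62 is filled and the evening response of 0.19 is open with an interval across 0.

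The chronic and first-day groups differed in labelled age and in set of mice, and the part of these and of any other difference between the sets cannot be told apart. The 8 first-day arrays that precede the added light by their ZT (advance ZT16 and delay ZT0, ZT4 and ZT8) were compared with short-day arrays of the same ZT. In that contrast 48.8% of all genes passed, while Eya3 differed by -0.05 ± 0.09 with a 95% interval of -0.23 to 0.14 (limma, adjusted p = 0.687).

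The 4 Eya3 probe sets did not all behave alike. Probe set 1420933_a_at, with a mean of 8.40, was above the array median on all 48 arrays and correlated with 1435443_at at r = 0.894 over the 24 group means, a description of probes for the same gene on the same arrays. It rose under long days by 0.63 ± 0.07 (limma, adjusted p = 1.91e-08). Its arrays went from 8.34 and 8.39 at advance ZT16 to 9.31 and 10.02 at ZT20, a response of 1.49 ± 0.25 (adjusted p = 0.00230), and were at 9.08 and 9.41 at ZT12.

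That probe set parted from the first in the course under long days. Its long-day arrays were at 8.42 and 8.47 at ZT0 and 8.93 and 9.15 at ZT4, a step of 0.59 ± 0.18 that did not pass (adjusted p = 0.566), and neither its long-day course (0.472) nor its difference in course (0.0838) passed. It was also 0.26 ± 0.09 higher in the first-day arrays ahead of the extra light (adjusted p = 0.0196), where 1435443_at did not differ. For this probe set too, advance lay above delay at ZT20 by 1.55 ± 0.18 (adjusted p = 8.28e-07) and at ZT12 by 0.98 ± 0.18 (adjusted p = 0.00313).

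The 2 remaining probe sets were dim. Probe set 1425989_a_at lay between 5.71 and 6.35, below the array median on every array, correlated with the first at r = -0.04 over the 24 means, and passed in neither the long-day comparison (0.03 ± 0.05) nor the early light response (0.25 ± 0.19). Probe set 1458961_at lay between 4.11 and 5.17, below the first quartile of all 48 arrays; it was 0.33 ± 0.05 higher under long days (adjusted p = 2.95e-06) and its early light response was -0.18 ± 0.18. Where these probe sets lie on the transcripts was not analysed here.

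**Figure D4:**
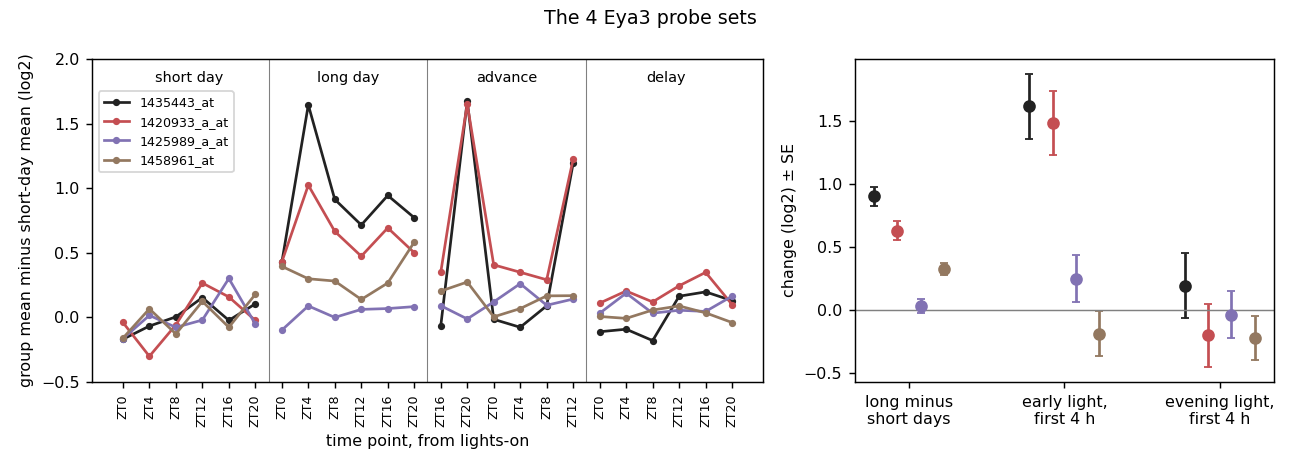
Left: mean log2 level of each Eya3 probe set minus its short-day mean, at the 24 combinations of condition and time point, each condition starting at lights-on. Right: log2 change ± SE of each probe set in 3 comparisons; 1435443_at and 1420933_a_at respond to early light by 1.62 and 1.49, and the dim probe sets stay within 0.25 of 0 there.

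Genes of the same pathway were followed in a list of 25, of which 23 were measured; the other two were not analysed here. Long days changed 15 of the 23, 10 upwards and 5 downwards, with a median change of -0.005 against -0.03 for all genes. Of all genes 46.7% passed that comparison, 17.6% upwards and 29.1% downwards. Among 8 regulators 4 passed, a share near the 46.7% of all genes. All 4 rose, where 17.6% of all genes did. The melatonin receptor Mtnr1a rose by 0.90 ± 0.16 and the clock output factor Hlf by 0.70 ± 0.05. The cAMP-responsive factor Crem rose by 0.41 ± 0.06, and Clock, a core activator of the circadian clock, by 0.14 ± 0.05. Tef, which encodes the known partner of EYA3 at Tshb, was at -0.07 ± 0.05 and did not pass.

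The relatives and homeobox partners of Eya3 were divided. Of 10 measured, 3 rose under long days: Six4 by 0.81 ± 0.08, Eya1 by 0.77 ± 0.09 and Eya4 by 0.26 ± 0.08. Another 5 fell: Six6 by 0.59, Six3 by 0.47, Six5 by 0.32, Eya2 by 0.23 and Dach1 by 0.16. Of all genes 17.6% rose and 29.1% fell. Eya2, Dach1 and Dach2 were dim, with means of 4.92, 6.11 and 6.09, below the array medians of 6.98 to 7.03. None of the 10 passed limma's F test for a course in any of the 4 conditions; at an unadjusted p under 0.05 there were 2 under short days, 1 in advance and 0 under long days and in delay. Of all genes 8.91% passed that test under short days, 1.63% under long days, 2.58% in advance and 1.52% in delay. None of the 10 passed in the response to early or evening light either, with 0 and 1 at an unadjusted p under 0.05. In the first-day arrays ahead of the extra light, 7 of the 10 differed from short days, 5 higher and 2 lower. Of all genes 48.8% passed that contrast. Eya1 was higher by 1.18 ± 0.12, Six4 by 0.78 ± 0.10 and Eya4 by 0.74 ± 0.10, and Six2 and Dach2 were higher by less. Six3 was at -0.62 ± 0.07 and Six6 at -0.61 ± 0.07. For Eya3 that difference was -0.05 ± 0.09 by the probe set that stands for the gene, which did not pass. By probe set 1420933_a_at it was 0.26 ± 0.09, which passed (limma, adjusted p = 0.0196). The difference between the genes was not tested.

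Of 5 measured targets and thyroid axis genes, 3 rose under long days, as 17.6% of all genes did: Tshb by 3.56 ± 0.16 or 11.8-fold, the thyroid hormone transporter Slco1c1 by 1.50 ± 0.07 and Dio2 by 1.02 ± 0.06. Cga and the thyrotropin receptor gene Tshr were at 0.03 ± 0.06 and -0.005 ± 0.04 and did not pass.

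In the response to 4 h of early light, 3 of the 23 passed, all upwards, where 0.22% of all genes passed and 0.181% upwards, and the median was -0.03 against -0.06 for all genes. Crem, whose product acts in cAMP signalling, rose by 1.34 ± 0.21 (limma, adjusted p = 0.000539), from 9.14 and 9.29 at ZT16 to 10.16 and 10.69 at ZT20. Slco1c1 rose by 1.25 ± 0.26 (adjusted p = 0.0153) and Dio2 by 1.07 ± 0.20 (adjusted p = 0.00563). Hlf at 0.31 ± 0.18 and Tef at -0.20 ± 0.16 did not pass.

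Tshb encodes the hormone subunit that EYA3 is known to act on. Its advance arrays were at 11.74 and 11.44 at ZT16 and 11.91 and 12.42 at ZT20, so both arrays of ZT20 were above both of ZT16. Its response was 0.30 ± 0.55, which did not pass (limma, adjusted p = 0.947), and the difference from the response of Eya3 was not tested. At ZT0, ZT4, ZT8 and ZT12 its advance arrays lay between 12.23 and 13.25, higher than at ZT16, and at the first 3 of these times Eya3 was low. The F test for Tshb over the advance day did not pass (adjusted p = 0.150). Its level in the first-day arrays ahead of the extra light was 1.50 ± 0.19 above short days, a contrast that 48.8% of all genes passed. A lag between the genes was not tested.

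Of the 23, none passed in the response to evening light (limma; 4 had an unadjusted p under 0.05, and 0.0385% of all genes passed), with a median of -0.002 against 0.05 for all genes. The early response exceeded the evening response for 1 of the 23, Crem, by 1.57 ± 0.30 (limma, adjusted p = 0.0162), where 0.159% of all genes passed.

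At the later Eya3 peak, Mtnr1a, Dio2, Slco1c1 and Crem of the list were also above their levels at ZT16. So were others of the list, among them Tshb, Hlf, Tef and Dbp. At advance ZT12 Mtnr1a was at 10.17 and 10.76, against 8.38 and 8.26 at ZT8; it was also at 9.63 and 9.07 at ZT12 under short days, where Eya3 was at 9.43 and 9.17. Dio2 was at 13.72 and 13.95 at advance ZT12, near its 13.72 and 13.88 at ZT20, and had been at 13.68 and 13.80 at ZT8, when Eya3 was low. Slco1c1 was at 13.02 and 13.26 at ZT12, against 11.88 and 12.16 at ZT16, and had been at 12.82 and 12.97 at ZT8. Crem was at 9.78 and 9.95 at ZT12, below its ZT20 arrays and above its 9.14 and 9.29 at ZT16. Under short days Mtnr1a, Dio2, Slco1c1 and Crem had their highest means at ZT12 too. There the arrays were at 13.28 and 12.97 for Dio2, 12.42 and 12.20 for Slco1c1, and 9.74 and 9.68 for Crem. These genes and time points were chosen after their values had been seen.

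The genes whose pattern was most like that of Eya3 over the 24 group means were named by Pearson r among the 8916 genes at or above the median level. They were Atp11a (r = 0.865), a phospholipid flippase gene, Lmbrd1 (0.856), which serves lysosomal cobalamin export, Hk2 (0.823), a hexokinase gene, Slc38a1 (0.818), a neutral amino acid transporter gene, and Anp32b (0.806). All points share the arrays and the pooled tissue, and each r is a description. The first 5 places over the 48 single arrays were held by the same 5 genes, with r from 0.763 to 0.806. By Spearman rank correlation over the 24 means their places ran from 8 (Lmbrd1) to 196.5 (Anp32b).

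With the mean of each condition subtracted, so that r reads the daily courses alone, the leading genes were Atp11a (0.803), Lemd2 (0.799), Ttc39c (0.795), Man2a1 (0.793), a Golgi mannosidase gene, and Dhrs3 (0.780), a retinaldehyde reductase gene. Lemd2 was high only by means: its r over the 48 arrays was 0.344, in place 541. By Spearman rank correlation over the same means Atp11a kept place 1. Man2a1 was then in place 40.5, Dhrs3 in 58, Lemd2 in 98.5 and Ttc39c in 152.5. In the response to early light Man2a1 rose by 1.07 ± 0.19 (limma, adjusted p = 0.00233), Dhrs3 by 0.82 ± 0.16 (0.0109), Anp32b by 0.73 ± 0.16 (0.0258) and Ttc39c by 0.65 ± 0.14 (0.0372). Atp11a at 0.48 ± 0.16 (0.424), Hk2 at 0.98 ± 0.26 (0.165), Slc38a1, Lmbrd1 and Lemd2 did not pass. That test was passed by 0.22% of all genes, 0.181% upwards. These genes were picked by likeness over means that include advance ZT16 and ZT20, so a rise there was partly built in. Their responses are a description. Under long days the named genes went both ways: Hk2 rose by 0.69 ± 0.07, while Dhrs3 fell by 0.21 and Ttc39c by 0.21.

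**Figure D5:**
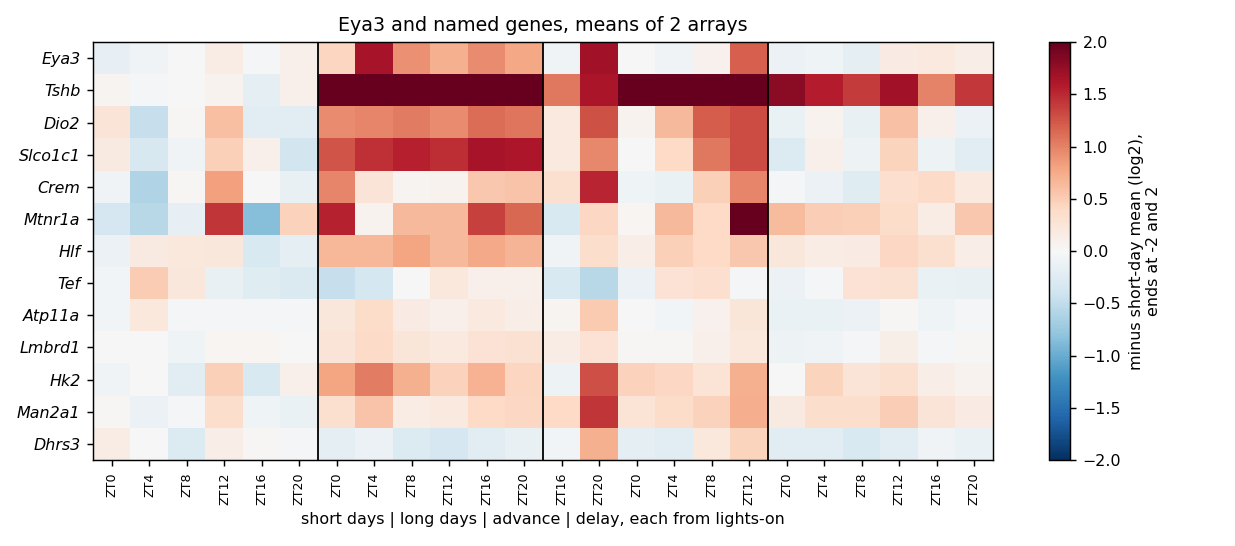
Mean log2 level of Eya3, 7 pathway genes and 5 of the genes most like it, each minus its own short-day mean, at the 24 combinations of condition and time point (colour, red higher, with ends at -2 and 2). Eya3 and Crem are both high at advance ZT20, with means of 10.82 and 10.42, while Tshb is raised at all long-day, advance and delay time points.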

How the data were processed

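Expression was measured on 48 arrays, 1 pool of pars tuberalis each. The log2 values are those the authors deposited, summarised per probe set by RMA in R 2.8.0, per the submitters' processing notes; array medians lay between 6.98 and 7.03, and no normalization was repeated. Depth has no meaning for arrays: their number, 2 per group, limits the precision. Of 45101 probe sets, 34958 carried 1 symbol in the platform annotation, 932 several and 9211 none. Each of 18194 genes was represented by its probe set with 1 symbol and the highest mean.

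A mean for each of 24 groups was fitted with limma 3.58.1 in R 4.3.3 (24 residual degrees of freedom, variances moderated by empirical Bayes with an intensity trend). Tests were two-sided, adjusted by Benjamini-Hochberg over all genes, with a threshold of 0.05; F tests took 5 contrasts. Errors of differences are SE from this fit. Scripts were tested on simulated data. Other Eya3 probe sets came from a fit on all probe sets with 1 symbol.

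Eya3, the gene lists and the comparisons were chosen with earlier results of these data known. Genes were named by rule: Tshb, Tef, Hlf, Dio2 and up to 4 more list members with the smallest p per comparison, and the 5 genes with the highest r to Eya3 on each of both scales, clone names passed over. Others named, among them the family members that changed under long days, were chosen after their values were seen. Same-numbered replicates were not tied by the labels, so no replicate block was used. Alternatives covered scaling, filters, probe sets, array weights, the conditions fitted, RNA quality, replicate blocks, time scales and each array left out.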

Additional observations from a re-analysis of the deposited data

Results flagged for a closer look

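The daily course of Eya3 differed between long and short days in a direct test of the courses matched by ZT (limma F test, adjusted p = 0.027). The step over the 4 h after lights-on differed by 1.641 between advance and short days (log2; adjusted p = 0.000212), with both advance arrays of ZT20 above both of ZT16 and the short-day arrays of ZT0 and ZT4 close together. It differed by 1.723 between advance and delay (adjusted p = 0.000220), which share age and earlier housing by the labels.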

How the results depend on the processing

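The precision is limited by 2 arrays per group, and p-values rest on a spread pooled over 24 groups. Under every alternative run, 1435443_at kept its long-day difference, its early light response and its advance course past the threshold. No alternative outside the dim probe sets and single arrays turned the direction of a change that had passed.

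With array weights the difference in course gave an adjusted p of 0.0823, with only the compared conditions 0.149, and matched by lights-off 0.263. With only the compared conditions the long-day course gave 0.169, and early minus evening light passed (1.42, adjusted p = 0.0190). Advance minus delay at ZT4 was -9.9e-05 after median centring and -0.023 after repeated quantile normalization, which also turned the first-day contrast ahead of extra light to 0.032. The cause was not tested.

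Same-numbered replicates deviated together with a median r of 0.0515 over 276 pairs of groups, at lowest -0.336 and over 0.1 in 98. Within a condition the median r was 0.238 under long days (over 0.1 in 14 of 15 pairs), 0.273 in delay (11 of 15), 0.0698 in advance (6 of 15) and 0.0328 under short days (3 of 15). In none were all pairs over 0.1, so the numbers were not taken as pairs. A replicate block over all arrays and one within each condition left the long-day difference at 0.90 (adjusted p = 2.79e-12 and 3.30e-12) and the early light response at 1.62 (0.000291 and 0.000193). Both blocks moved long minus short at ZT12 (adjusted p = 0.0417 and 0.0296) and the long-day minus short-day step (0.0347 and 0.0236) past the threshold, and the block within conditions also the long-day change from ZT4 to ZT8 (0.0467). The block within conditions moved the count of genes that differ in course from 782 to 1265.

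Leaving out 1 array at a time, the adjusted p of the long-day course ran from 3.51e-06 to 0.0701 and that of the difference in course from 0.000333 to 0.159. The delay step after lights-on ran from -0.023 to 0.063, advance ZT16 to ZT4 minus short days from -0.076 to 0.15, and advance minus delay from -0.031 to 0.22 at ZT0 and from -0.033 to 0.062 at ZT4; these turned sign without having passed.

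Probe set 1420933_a_at gave an adjusted p of 0.472 for the long-day course and 0.0838 for the difference in course. It turned the evening response to -0.20, delay ZT8 to ZT20 to -0.054, the short-day step to -0.26 and the first-day contrast ahead of extra light to 0.26. Probe set 1425989_a_at gave adjusted p-values of 1 for the long-day course, 0.917 for the advance course and 0.778 for the difference in course, a long-day difference of 0.033 and an early response of 0.25. With it these changed sign: long minus short at ZT16 -0.23, advance ZT0 minus ZT20 0.13, evening response -0.034, delay ZT8 to ZT16 -0.36, and the advance step -0.10, which was -0.28 against short days, -0.29 against long days and -0.26 against delay. So did advance minus delay at ZT16 (0.045) and ZT20 (-0.18) and the first-day contrast ahead of extra light (0.067). Probe set 1458961_at gave adjusted p-values of 0.516 for the long-day course, 0.847 for the advance course and 0.415 for the difference in course. Its changed signs were the early response -0.18, advance to ZT0, ZT4 and ZT12 minus short days -0.11, -0.28 and -0.24, advance ZT12 minus ZT16 -0.035, evening response -0.22, delay to ZT16 and ZT20 -0.074 and -0.40, and the long-day and delay steps -0.096 and -0.015. The same held for the advance step less the short-day step (-0.16), the long-day step less the short-day step (-0.32), advance minus delay at ZT0 (-0.0027) and ZT16 (0.17), and the first-day contrast ahead of extra light (0.14).

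Over all genes, the early light response passed for 40, from 18 without the second array of advance ZT20 to 334 without the first of short-day ZT16. The difference in course passed for 782, from 50 by lights-off to 1456 without the first array of short-day ZT16. Long minus short days passed for 8503, or 5006 with the actin covariate, and the evening response for 7, from 0 without the first array of short-day ZT8 to 11 with the block within conditions.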
